A study of Mus musculus with 6 samples.

Results

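Solute carriers are a large group of membrane transporters, and their mRNAs are described here in cultured mouse germ cells, in RNA recovered with an antibody to the tag of DAZL and in RNA recovered with an antibody to PABP1. A gene was counted as a solute carrier if its name in the array files was Slc, a family number, a letter a or b and a member number. The array carried 460 probes for 290 such genes. A gene was kept if a probe was well above background, by the scanner software's flag, on both arrays of at least 1 of 3 groups, which left 191 of 14996 genes kept by that rule. Where several probes of a gene were kept, the brightest on average over all 6 arrays stood for it. The members were thus chosen by detection and brightness on these arrays, and neither is a finding here.

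The first group was RNA recovered with an antibody to GFP (GFP IP, 2 arrays). The second was RNA recovered with an antibody to the poly(A)-binding protein PABP1 (PABP1 IP, 2 arrays), which the labels call a control. The third was total RNA with no antibody (input, 2 arrays). All 3 groups came from cells labelled primordial germ cells, made by growing Dazl-GFP-V5 embryonic stem cells for 12 days in differentiation medium, so cells of all groups carried the tagged allele. Feeder cells had been removed before differentiation, and proteins were crosslinked to RNA with ultraviolet light before the immunoprecipitation. The stem cells derived from the V6.5 line, of C57BL/6 and 129SV mixed strain. The labels name no sort of the differentiated cells and no untagged line, and do not say whether replicates were separate cultures, so that the spread behind each p-value may be technical.

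As background, DAZL is a germ cell protein that binds the 3′ untranslated regions of mRNAs, and PABP1 binds the poly(A) tail that most mRNAs carry. Solute carriers move amino acids, sugars, ions, metals, vitamins and lipids across membranes, by facilitated diffusion, cotransport or exchange. Most families act at the plasma membrane. The Slc25 family, whose members nearly all lie in the inner mitochondrial membrane, exchanges nucleotides, phosphate, carboxylic acids, amino acids and cofactors between the mitochondrial matrix and the cytosol. Others serve lysosomes, synaptic vesicles, the Golgi apparatus and the endoplasmic reticulum.

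Signal is given as the log2 of the scanner software's processed signal minus the log2 of the array's 75th percentile, called log2 signal. A difference of 1 on this scale is a 2-fold difference. Levels of different genes come from different probes and were not set against each other. Replicate arrays correlated at 0.981 (GFP IP), 0.982 (PABP1 IP) and 0.992 (input) over all genes, while correlations between arrays of unlike groups ran from 0.872 to 0.934. Among the 191 solute carrier genes the replicates of a gene differed by a median of 0.292 (GFP IP), 0.276 (PABP1 IP) and 0.132 (input) in log2 signal. Of 8 germ cell markers on the array, 6 were kept and 4 were higher and 1 lower in the GFP IP against input, Dazl itself by 3.80 ± 0.26 (limma standard error, adjusted p = 0.00144). Ddx4 and Sycp3, markers of later germ cells, were not kept. All 5 kept cardiac muscle markers and all 4 kept fibroblast markers were lower in the GFP IP than in input, and 2 of 5 and 0 of 4 were lower in the PABP1 IP than in input. Of all genes, 18.5% were higher and 36.6% lower in the GFP IP, and 23.8% lower in the PABP1 IP. Other lists went other ways in the GFP IP. Of 5 kept pluripotency markers 4 were higher and 0 lower. Of 3 kept neural markers, and of 3 kept erythroid and endothelial markers, 1 was higher and 1 lower. The 1 kept visceral endoderm marker was not called. The kept cardiac muscle and fibroblast markers were well above background on both input arrays, and in RNA from a whole culture the number of cells that hold an mRNA and its amount per cell cannot be told apart. Their part in the results was not tested.

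Of the 191 genes, 156 were well above background on all 6 arrays. Of the other 35, Slc22a20, Slc2a2, Slc7a14 and Slc26a9 were well above background only on both PABP1 IP arrays, Slc5a1, the intestinal sodium and glucose cotransporter, only on both GFP IP arrays, and Slc25a2, a mitochondrial ornithine carrier, on the GFP IP and input arrays but on neither PABP1 IP array. These genes had to differ between groups in order to be kept. The kept genes of lowest mean log2 signal were Slc2a2 at -4.26, Slc7a14 at -4.14 and Slc36a2 at -4.01, while the brightest genes left out were Slc22a19 at -3.39, Slc2a9 at -3.64 and Slc26a5 at -3.70. Of the 99 solute carrier genes left out, 79 had a best probe that was well above background on no array.

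Solute carrier genes as a whole were called at shares near those of all genes. Against input, 38 of 191 (19.9%) were higher and 78 (40.8%) lower in the GFP IP by limma (Benjamini-Hochberg adjusted p under 0.05 over all 14996 genes), where 18.5% of all genes were higher and 36.6% lower. In the PABP1 IP against input, 43 (22.5%) were higher and 42 (22%) lower, where 30.0% of all genes were higher and 23.8% lower. In the GFP IP against the PABP1 IP, 36 (18.8%) were higher and 71 (37.2%) lower, where 22.3% of all genes were higher and 41.3% lower. The counts of each transport group below are to be read beside these shares of all genes. The median log2 difference of the 191 genes was -0.54, 0.05 and -0.47 in these comparisons, beside -0.50, 0.12 and -0.58 for all genes. Both comparisons with input share the same 2 input arrays, and the 2 with the GFP IP share the same GFP IP arrays, so their results are given side by side and not as separate evidence.

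These counts rest on the scaling and on the input arrays. Scaling on spike-in controls moved the median gene by 0.98, 2.08 and -1.11 in the 3 comparisons, and left 49 solute carrier genes higher and 2 lower, 161 higher and 1 lower, and 9 higher and 125 lower. Of all genes, 24.9% were then higher and 2.03% lower, 80.7% and 1.73%, and 5.71% and 63.6%. Scaling on the median of all probes moved the median gene by 0.58, 0.19 and 0.39, and gave 48 higher and 23 lower, 45 higher and 25 lower, and 47 higher and 41 lower. The shares of all genes were 24.2% and 11.6%, 31% and 17%, and 25.4% and 27.5%. Cyclic loess moved the median gene by 0.39, -0.14 and 0.52, and gave 50 and 51, 35 and 59, and 65 and 40. There 24.7% and 24.3%, 26.4% and 28.6%, and 30.9% and 27.4% of all genes were higher and lower. Higher and lower are therefore relative to the array's 75th percentile, and list medians are given minus the median of all genes, a quantity that a constant scaling does not move. Leaving out either input array lowered the counts of higher and lower genes in both comparisons with input, among all genes as among solute carrier genes. Counts given below without an input array are to be read beside that fall over all genes. Counts of 6 or fewer within a transport group moved by at most 4 when an array was left out. Each of 2 slides held 1 GFP IP and 1 PABP1 IP array, and slide 1 held both input arrays. Slide as a block gave 43 higher and 85 lower in the GFP IP against input, 59 and 51 in the PABP1 IP against input, and 43 and 94 in the GFP IP against the PABP1 IP. Among all 14996 genes it gave 3041 and 6241, 5401 and 4007, and 3822 and 7694.

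**Figure D1:**
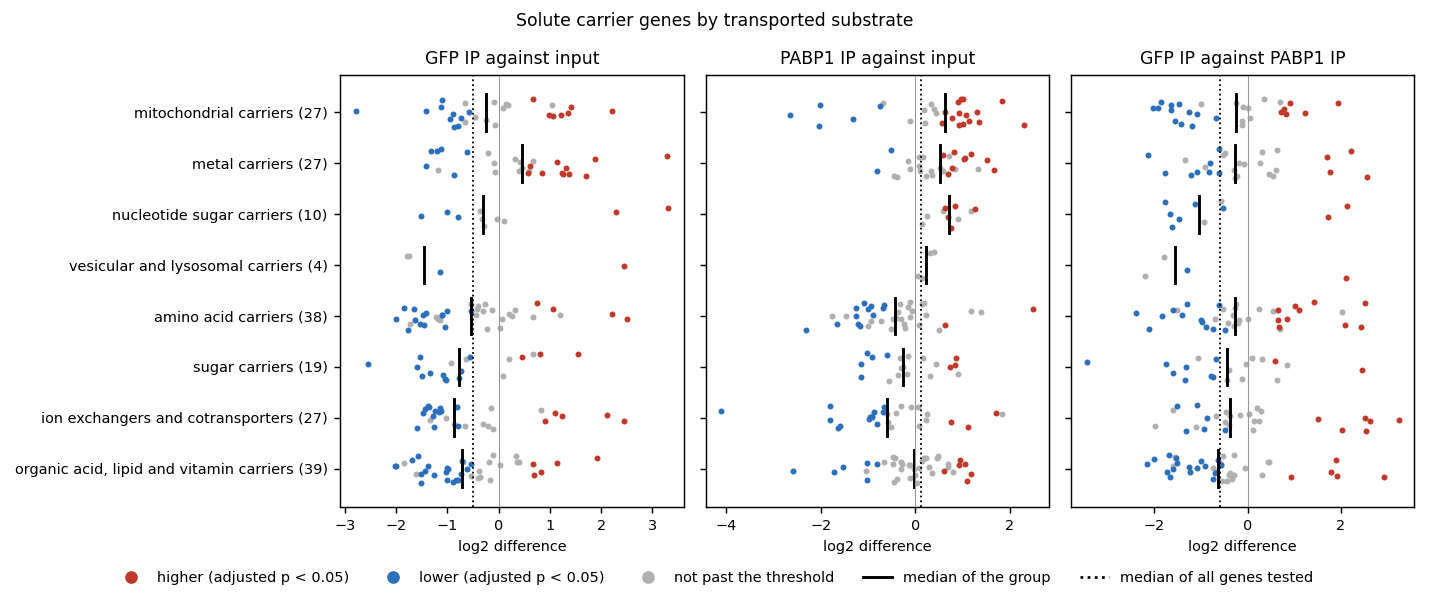
Log2 difference (horizontal axis) of each of the 191 solute carrier genes in the 3 comparisons, by transport group drawn from whole families, with the number of genes in brackets. Each dot is a gene, coloured by its call, the thick line is the median of the group, and the dotted line is the median of all 14996 genes. The median of the metal carriers in the left panel, the GFP IP against input, lies to the right of the dotted line, at 0.46 beside -0.50 for all genes, while some single metal carriers lie to its left.

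Carriers of zinc, copper, iron and magnesium were the transport group furthest above the other genes in the GFP IP. Of 27 kept metal carriers, 11 were higher and 6 lower in the GFP IP than in input, and their median lay 0.96 above that of all genes. These are 40.7% and 22.2% of the group, beside 18.5% and 36.6% of all genes. On the single GFP IP arrays this excess was 0.961 and 0.974, and on the PABP1 IP arrays 0.255 and 0.428. The PABP1 IP against input had 9 higher and 2 lower, with a median 0.40 above that of all genes, and in the GFP IP against the PABP1 IP 4 were higher and 8 lower, with a median 0.31 above. Without either input array the GFP IP count fell to 4 higher and 2 lower, and without GFP IP replicate 2 to 7 higher and 4 lower. The count of higher genes in the PABP1 IP was 3 and 4 without input replicate 1 and 2, and 5 without PABP1 IP replicate 2, and that of lower genes in the GFP IP against the PABP1 IP was 4 without GFP IP replicate 1.

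The zinc importer Slc39a10 (ZIP10) gave the largest difference from input in the group. Its log2 signal was 1.77 and 2.16 on the GFP IP arrays, -0.63 and -0.57 on the PABP1 IP arrays and -0.998 and -1.64 on the input arrays. Both GFP IP arrays lay above all other arrays, and the difference from input was 3.28 ± 0.27 (adjusted p = 0.00169), or 9.73-fold, while in the PABP1 IP it was 0.72 ± 0.27 (0.0746). Against the PABP1 IP the gene was higher by 2.56 ± 0.27 (0.00102), and by 2.79 on slide 1 and 2.33 on slide 2. Values after ± are limma standard errors and p-values in brackets are limma's adjusted p throughout, with 2 arrays a group.

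Slc39a6 (ZIP6), a zinc importer closely related to ZIP10, was at 4.54 and 4.46 on the GFP IP arrays, 2.24 and 2.35 on the PABP1 IP arrays and 2.81 and 2.81 on the input arrays. It rose by 1.70 ± 0.15 (0.00183) in the GFP IP against input and by 2.21 ± 0.15 (0.000477) against the PABP1 IP. Slc39a9 (ZIP9), another member of the family, was at 1.35 and 1.34 on the GFP IP arrays, -0.39 and -0.32 on the PABP1 IP arrays and 0.17 and 0.04 on the input arrays, and was 1.24 ± 0.15 (0.00291) above input in the GFP IP. For both genes the groups did not overlap, and the PABP1 IP arrays were the lowest. Slc30a1 (ZnT1), which exports zinc from the cell, was at 1.83 and 1.97 on the GFP IP arrays, 1.82 and 1.43 on the PABP1 IP arrays and 0.59 and 0.59 on the input arrays. It was higher than input in both immunoprecipitates, by 1.31 ± 0.19 (0.00439) in the GFP IP and 1.03 ± 0.19 (0.00788) in the PABP1 IP. A second kept probe of Slc30a1 gave 2.46 and 0.05 in these comparisons, and the PABP1 IP call was lost without input replicate 1 (1.04, 0.0521) or 2 (1.03, 0.0532).

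The metal carriers Slc31a2 and Slc11a1 were highest in the PABP1 IP. Slc31a2 (CTR2), a relative of the cell's copper importer, was at 2.03 and 1.73 on the GFP IP arrays, 2.51 and 2.90 on the PABP1 IP arrays and 0.97 and 1.10 on the input arrays. It exceeded input by 1.67 ± 0.21 (0.00258) in the PABP1 IP, and a second kept probe gave 1.71. Slc11a1 (NRAMP1), a divalent metal carrier known from the phagosomes of macrophages, was at 0.75 and 0.89 on the GFP IP arrays, 3.05 and 2.84 on the PABP1 IP arrays and 1.31 and 1.56 on the input arrays. It was 1.51 ± 0.18 (0.00209) above input in the PABP1 IP and lower in the GFP IP than in the PABP1 IP, at -2.13 ± 0.18 (0.000587). The same divergence was seen within each slide, where Slc11a1 differed by -2.16 on slide 1 and -2.10 on slide 2.

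**Figure D2:**
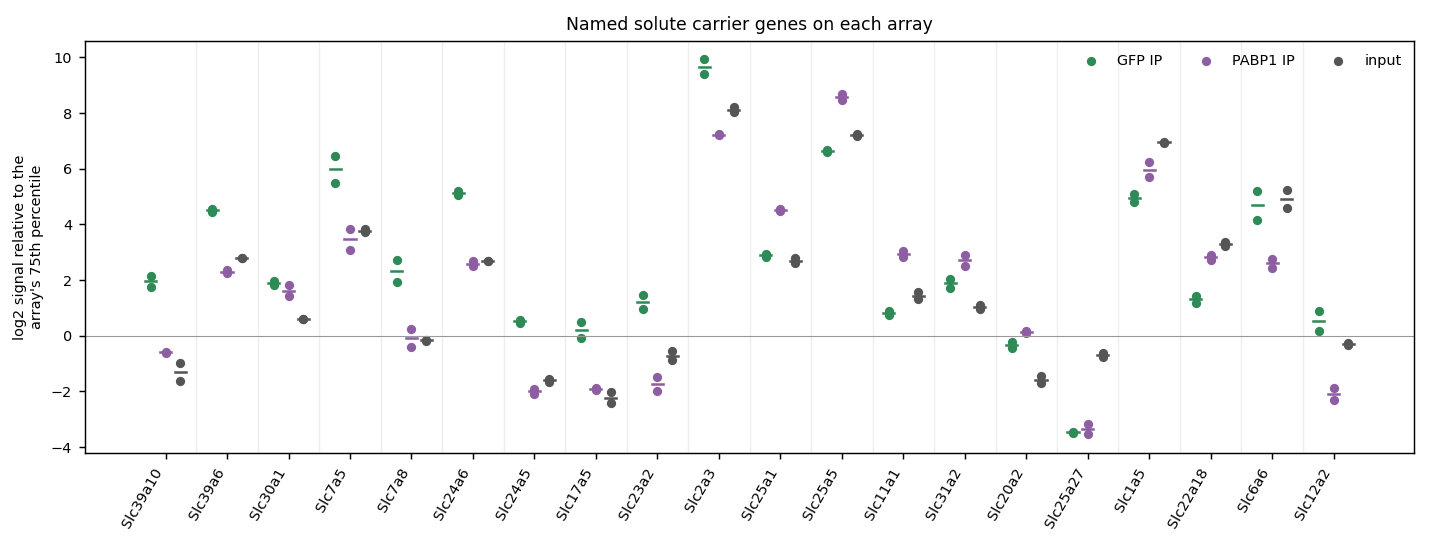
Log2 signal relative to the array's 75th percentile (vertical axis) of 20 solute carrier genes named in the text, with a dot for each array and a short line for the mean of the 2 arrays of a group. The first genes on the left, such as Slc39a10 and Slc7a8, have both GFP IP arrays above all others, and Slc25a1, Slc25a5 and Slc11a1 have both PABP1 IP arrays on top.

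Amino acid carriers were called lower in the GFP IP at about the share of all genes. Of 38, 4 were higher and 14 lower in the GFP IP than in input, with a median 0.03 below that of all genes, and 2 were higher and 12 lower in the PABP1 IP, with a median 0.56 below that of all genes. The group was drawn from whole families and holds carriers of other substrates, such as Slc6a3 (dopamine) and Slc6a8 (creatine), both among the 14. The shares were 10.5% higher and 36.8% lower in the GFP IP and 5.26% and 31.6% in the PABP1 IP, beside 18.5% and 36.6%, and 30.0% and 23.8%, of all genes. Without a filter on dim probes the PABP1 IP median was 0.051 above that of all genes. Compared directly, 10 were higher and 12 lower in the GFP IP than in the PABP1 IP, with a median 0.32 above that of all genes. The lower counts against input were 7 and 7 in the GFP IP and 8 and 6 in the PABP1 IP without input replicate 1 and 2, and the GFP IP against the PABP1 IP had 5 lower without GFP IP replicate 1 or PABP1 IP replicate 1.

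The large neutral amino acid exchangers Slc7a5 (LAT1) and Slc7a8 (LAT2) led the rise. Slc7a5 was at 6.47 and 5.50 on the GFP IP arrays, 3.09 and 3.84 on the PABP1 IP arrays and 3.83 and 3.71 on the input arrays. Its difference from input was 2.22 ± 0.41 (0.00838) in the GFP IP, and the GFP IP was 2.52 ± 0.41 (0.00386) above the PABP1 IP. Slc7a8 was at 2.73 and 1.95 on the GFP IP arrays, -0.40 and 0.23 on the PABP1 IP arrays and -0.19 and -0.15 on the input arrays, a difference from input of 2.51 ± 0.34 (0.00369) in the GFP IP, and it was 2.42 ± 0.34 (0.00244) above the PABP1 IP. Both genes had both GFP IP arrays above all 4 others. Each works at the cell surface as a heterodimer with the heavy chain Slc3a2 (4F2hc), whose own log2 signal was 6.58 and 6.58 on the GFP IP arrays, 7.09 and 6.64 on the PABP1 IP arrays and 7.14 and 7.09 on the input arrays. The Slc3a2 arrays of the 3 groups lay close together, and its difference from input in the GFP IP was -0.53 ± 0.20 (0.069), with a second kept probe at -0.49. This value changed sign under spike-in scaling (0.44), quantile normalization (0.030), cyclic loess (0.18), the median of all probes (0.042) and normexp background correction (0.045). The difference between the light chains and the heavy chain was not tested.

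On the lower side, the neutral amino acid exchanger Slc1a5 (ASCT2), a main route for glutamine, was at 4.82 and 5.09 on the GFP IP arrays, 6.23 and 5.70 on the PABP1 IP arrays and 6.97 and 6.93 on the input arrays. The groups did not overlap, and Slc1a5 was lower than input, at -1.9999 ± 0.23 (0.00266) in the GFP IP and -0.99 ± 0.23 (0.0174) in the PABP1 IP. The PABP1 IP call was lost without PABP1 IP replicate 2 (-0.72, 0.0538), input replicate 1 (-0.97, 0.0867) or input replicate 2 (-1.01, 0.0812). Slc1a6 (EAAT4), a glutamate transporter best known from cerebellar neurons, was at -0.90 and -1.09 on the GFP IP arrays, -0.46 and -0.29 on the PABP1 IP arrays and 0.69 and 0.998 on the input arrays, lower than input, at -1.84 ± 0.19 (0.00222) in the GFP IP. The orphan relative of the cationic amino acid transporters Slc7a4 was lower than input, at -1.77 ± 0.18 (0.0022) there. All 3 GFP IP calls were lost under spike-in scaling, which left differences of -1.02, -0.87 and -0.80.

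The taurine transporter Slc6a6 differed between the immunoprecipitates. Its log2 signal was 4.15 and 5.22 on the GFP IP arrays, 2.77 and 2.43 on the PABP1 IP arrays and 4.59 and 5.23 on the input arrays, so that the PABP1 IP arrays lay below all others and the GFP IP and input arrays overlapped. The PABP1 IP was lower than input, at -2.31 ± 0.42 (0.00746), and a second kept probe gave -0.67. In the GFP IP against input the second probe gave 1.44, where the brightest gave -0.23. The GFP IP was 2.09 ± 0.42 (0.00835) above the PABP1 IP, with 2.11 from the second probe. The GABA transporter Slc6a13 (GAT2) was at -3.73 and -3.40 on the GFP IP arrays, -1.21 and -1.67 on the PABP1 IP arrays and -2.13 and -1.75 on the input arrays, and was lower in the GFP IP than in the PABP1 IP, at -2.12 ± 0.25 (0.00143), with -1.78 from a second kept probe. Slc36a2 (PAT2), a proton-coupled carrier of small amino acids, was well above background on both PABP1 IP arrays, 1 GFP IP array and no input array. It was kept through its PABP1 IP arrays, so no test is given. The gene was at least 1.39-fold higher in the PABP1 IP than in input, a bound set by the dimmest spot that the software called well above background. Its measured means were -2.57 in the PABP1 IP and -5.07 in input, and under normexp background correction the difference was -0.21.

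Of 19 genes of the sugar carrier families, 3 were higher and 11 lower in the GFP IP than in input, with a median 0.26 below that of all genes. The group was drawn from the whole families Slc2, Slc5, Slc37 and Slc45, so it holds the multivitamin transporter Slc5a6, 1 of the 11. The PABP1 IP had 3 higher and 5 lower than input, with a median 0.38 below, and in the GFP IP against the PABP1 IP 2 were higher and 8 lower, with a median 0.13 above. The shares lower were 57.9% in the GFP IP and 26.3% in the PABP1 IP, beside 36.6% and 23.8% of all genes, and without a filter on dim probes the PABP1 IP median was 0.23 above that of all genes. The lower count in the GFP IP was 7 without input replicate 1. The PABP1 IP count of lower genes was 2 without PABP1 IP replicate 2 or either input array, and that of higher genes was 0 without either input array.

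The glucose transporter Slc2a3 (GLUT3), typical of neurons and early embryonic cells, was an exception in the GFP IP. Its log2 signal was 9.41 and 9.93 on the GFP IP arrays, 7.24 and 7.20 on the PABP1 IP arrays and 8.05 and 8.21 on the input arrays. The GFP IP arrays were the highest and the PABP1 IP arrays the lowest, with 1.54 ± 0.22 (0.0042) for the GFP IP against input and 2.45 ± 0.22 (0.000675) against the PABP1 IP. A second, dimmer kept probe of Slc2a3 gave -1.56 against input and 1.13 against the PABP1 IP, so the probes disagreed in the comparison with input, and their mean there was -0.0081. The widely expressed glucose transporter Slc2a1 (GLUT1) was at 7.04 and 7.75 on the GFP IP arrays, 7.59 and 7.01 on the PABP1 IP arrays and 8.28 and 8.38 on the input arrays, and its difference from input in the GFP IP did not pass the threshold (-0.94 ± 0.32, 0.0531) and was 0.041 under spike-in scaling. Slc2a4 (GLUT4), the insulin-responsive glucose transporter of muscle and fat, was at 0.42 and 0.24 on the GFP IP arrays, 0.65 and 0.78 on the PABP1 IP arrays and 1.78 and 1.95 on the input arrays and was lower than input in the PABP1 IP (-1.15 ± 0.17, 0.00376). The inositol transporter Slc5a11 (SMIT2) was at 2.57 and 2.45 on the GFP IP arrays, 3.94 and 3.73 on the PABP1 IP arrays and 4.06 and 4.13 on the input arrays, lower in the GFP IP than in input, at -1.59 ± 0.16 (0.00225). Slc45a4, of the proton-coupled sugar transporter family, was lower than input in the PABP1 IP (-1.15 ± 0.15, 0.00289), with log2 signals of 5.56 and 5.55 on the GFP IP arrays, 5.02 and 4.91 on the PABP1 IP arrays and 6.18 and 6.05 on the input arrays. Slc2a2 (GLUT2), the glucose transporter of liver and pancreatic beta cells, was at least 2.73-fold lower in the GFP IP than in the PABP1 IP (measured means -6.26 and -2.82). It was well above background on the PABP1 IP arrays alone and was kept through them, so no test is given. Under the alternatives described below the log2 difference of Slc2a2 ran from -4.56 to -0.56.

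The median of the kept ion exchangers and cotransporters lay below that of all genes in both immunoprecipitates, but in the GFP IP it was 0.20 above without a filter on dim probes. Of 27, 5 were higher and 13 lower in the GFP IP than in input, with a median 0.36 below that of all genes, and 3 were higher and 12 lower in the PABP1 IP, with a median 0.72 below. The shares were 18.5% higher and 48.1% lower in the GFP IP and 11.1% and 44.4% in the PABP1 IP, where 18.5% and 36.6%, and 30.0% and 23.8%, of all genes were called. Relative to the PABP1 IP, in the GFP IP 6 were higher and 6 lower, with a median 0.19 above. The lower count in the PABP1 IP was 6 and 5 without input replicate 1 and 2, and the higher count in the GFP IP was 3 without input replicate 1.

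The 2 kept genes that the array files name as Slc24, the sodium, calcium and potassium exchanger family, were the clearest exceptions. Slc24a6, listed by RefSeq as Slc8b1, the mitochondrial sodium and calcium exchanger NCLX, was at 5.19 and 5.06 on the GFP IP arrays, 2.67 and 2.49 on the PABP1 IP arrays and 2.69 and 2.67 on the input arrays. It rose by 2.44 ± 0.16 (0.00144) in the GFP IP against input, or 5.43-fold, and was 2.54 ± 0.16 (0.000462) above the PABP1 IP. Slc24a5 (NCKX5), known for its role in pigmentation, was at 0.47 and 0.57 on the GFP IP arrays, -1.91 and -2.09 on the PABP1 IP arrays and -1.66 and -1.54 on the input arrays, 2.12 ± 0.16 (0.00154) above input in the GFP IP. Both genes had the GFP IP arrays more than 2 log2 units above the mean of input.

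The chloride cotransporter Slc12a2 (NKCC1), which brings sodium, potassium and chloride into cells, was lowest on the PABP1 IP arrays. Its log2 signal was 0.17 and 0.88 on the GFP IP arrays, -1.88 and -2.30 on the PABP1 IP arrays and -0.25 and -0.33 on the input arrays. It was lower than input in the PABP1 IP (-1.80 ± 0.29, 0.00525) and 2.62 ± 0.29 (0.00116) higher in the GFP IP than in the PABP1 IP, within slides by 2.77 on slide 1 and 2.47 on slide 2. Slc4a7 (NBCn1), a sodium bicarbonate cotransporter, showed the largest fall in the PABP1 IP among solute carrier genes, with a wide spread. Its log2 signal was 6.0000 and 3.42 on the GFP IP arrays, 0.96 and 1.98 on the PABP1 IP arrays and 6.18 and 4.96 on the input arrays, so that replicates differed by more than 1 log2 unit in every group. The PABP1 IP was below input, at -4.10 ± 0.94 (0.0162), and the call was lost without PABP1 IP replicate 1 (-3.59, 0.0734) or input replicate 1 (-3.49, 0.0791). The GFP IP was 3.24 ± 0.94 (0.0295) above the PABP1 IP, and this call was lost without GFP IP replicate 1 (1.95, 0.0694), PABP1 IP replicate 1 (2.73, 0.127) or PABP1 IP replicate 2 (3.75, 0.0544). In the authors' deposited table, the log2 ratio of the means of Slc4a7 was -0.07 for the PABP1 IP over input. The phosphate importer Slc20a2 (PiT-2) was at -0.24 and -0.44 on the GFP IP arrays, 0.11 and 0.15 on the PABP1 IP arrays and -1.46 and -1.71 on the input arrays, above input by 1.72 ± 0.17 (0.00147) in the PABP1 IP, and a second kept probe gave 1.31.

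Carriers of organic acids, lipids, vitamins and nucleosides were the largest group. Of 39, 5 were higher and 20 lower in the GFP IP than in input, with a median 0.21 below that of all genes, and 6 were higher and 6 lower in the PABP1 IP, with a median 0.16 below. Of the group, 51.3% were lower in the GFP IP and 15.4% in the PABP1 IP, beside 36.6% and 23.8% of all genes. Between the GFP IP and the PABP1 IP 5 were higher and 18 lower, with a median 0.05 below. Against input, the GFP IP gave 1 higher and 8 lower without either input array, 2 and 8 without GFP IP replicate 1, and 3 and 14 without GFP IP replicate 2. The PABP1 IP counts were 3 higher and 4 lower without input replicate 1, 3 and 3 without input replicate 2, and 4 and 7 without PABP1 IP replicate 1.

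Among those that rose was the vitamin C transporter Slc23a2 (SVCT2). Its log2 signal was 1.45 and 0.96 on the GFP IP arrays, -1.98 and -1.48 on the PABP1 IP arrays and -0.87 and -0.56 on the input arrays. It was 1.92 ± 0.28 (0.0042) above input in the GFP IP, and 2.93 ± 0.28 (0.000744) above the PABP1 IP, or 7.63-fold. The 2 slides gave nearly the same value for the difference from the PABP1 IP, 2.94 on slide 1 and 2.92 on slide 2. The monocarboxylate transporter Slc16a1 (MCT1), a route for lactate and pyruvate, was at 5.88 and 5.15 on the GFP IP arrays, 3.39 and 4.05 on the PABP1 IP arrays and 4.28 and 4.49 on the input arrays and was higher in the GFP IP than in the PABP1 IP by 1.79 ± 0.34 (0.007). Its 2 other kept probes gave 2.197 and 1.91.

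Among those that fell, Slc22a18, an imprinted member of the organic cation transporter family, was at 1.19 and 1.43 on the GFP IP arrays, 2.92 and 2.73 on the PABP1 IP arrays and 3.23 and 3.38 on the input arrays. It was -1.99 ± 0.18 (0.00185) relative to input in the GFP IP, and a second kept probe gave -0.93. The nucleoside transporters Slc29a3 (ENT3, of lysosomes and mitochondria) and Slc28a3 (CNT3, of the plasma membrane) were lower in the PABP1 IP than in input. Slc29a3 was at -2.10 and -1.09 on the GFP IP arrays, -3.59 and -3.39 on the PABP1 IP arrays and -1.11 and -0.71 on the input arrays, lower in the PABP1 IP than in input, at -2.58 ± 0.37 (0.0035), with 1 of 2 PABP1 IP arrays well above background. Slc28a3 was at -1.09 and -0.64 on the GFP IP arrays, -1.17 and -1.44 on the PABP1 IP arrays and 0.30 and 0.50 on the input arrays, lower, at -1.71 ± 0.23 (0.0028). Both nucleoside transporters had the PABP1 IP arrays below all other arrays. Slc22a20, an organic anion transporter, was at least 3.61-fold lower in the GFP IP than in the PABP1 IP (measured means -4.56 and -2.41). It too was kept through the PABP1 IP arrays alone and is given with no test. Under the alternatives described below the log2 difference of Slc22a20 ran from -3.25 to -0.50.

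The nucleotide sugar carriers supply the Golgi apparatus and the endoplasmic reticulum with the substrates of glycosylation. Of 10 in this group, which was drawn up to hold carriers of nucleotide-linked substrates of these compartments, 5 were higher and 0 lower in the PABP1 IP than in input, with a median 0.59 above that of all genes. Relative to input 2 were higher and 3 lower in the GFP IP, with a median 0.19 above, and 2 were higher and 6 lower than in the PABP1 IP, with a median 0.46 below. The 2 higher genes were Slc33a1 and Slc35a5 in both comparisons. Each was well above background on no input array and 1 PABP1 IP array, and so was kept through the GFP IP alone. The count of 5, in a comparison where 30.0% of all genes were higher, was 1 and 2 without input replicate 1 and 2. Slc35b4, which carries UDP-xylose and UDP-N-acetylglucosamine, was at 0.29 and 0.36 on the GFP IP arrays, 2.27 and 1.90 on the PABP1 IP arrays and 1.38 and 1.29 on the input arrays. It was -1.76 ± 0.19 (0.000992) relative to the PABP1 IP in the GFP IP, but its 2 other kept probes gave 0.73 and 0.52, the opposite sign. Slc35b1, a carrier of the endoplasmic reticulum, was at 4.86 and 4.61 on the GFP IP arrays, 6.51 and 6.30 on the PABP1 IP arrays and 6.25 and 6.26 on the input arrays, and the GFP IP was lower than input, at -1.52 ± 0.17 (0.00261). Slc35a3, a UDP-N-acetylglucosamine carrier, was 1.25 ± 0.21 (0.00616) above input in the PABP1 IP by its brightest probe and -0.14 by the other. Slc35a5, a less studied member of the family, was at least 3.59-fold higher in the GFP IP than in the input (measured means -1.20 and -4.51), and a second kept probe gave a log2 difference of 2.51. It was well above background on both GFP IP arrays, 1 PABP1 IP array and no input array, and so was kept through the GFP IP and is given with no test. Under the alternatives described below the log2 difference of Slc35a5 from input ran from 0.051 to 4.28.

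Only 4 vesicular and lysosomal carriers were kept, with 1 higher and 1 lower in the GFP IP than in input, 0 called in the PABP1 IP against input, and 1 higher and 1 lower in the GFP IP against the PABP1 IP. Slc17a5 (sialin), which exports sialic acid from lysosomes, was at -0.07 and 0.48 on the GFP IP arrays, -1.95 and -1.88 on the PABP1 IP arrays and -2.43 and -2.04 on the input arrays, 2.44 ± 0.25 (0.00225) above input in the GFP IP. Slc32a1 (VGAT), which loads GABA and glycine into synaptic vesicles, was at 0.07 and -0.08 on the GFP IP arrays, 1.30 and 1.29 on the PABP1 IP arrays and 1.20 and 1.10 on the input arrays, lower in the GFP IP than in input, at -1.15 ± 0.15 (0.00354), a call lost under the median of all probes (-0.58, 0.144). In both genes the GFP IP arrays stood apart and the PABP1 IP and input arrays lay close together.

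The 27 kept Slc25a genes, the mitochondrial carriers together with the peroxisomal carrier Slc25a17, were set against the 127 plasma membrane carriers. In the PABP1 IP against input, 15 of 27 Slc25a genes were higher and 5 lower, and 16 of 127 plasma membrane carriers were higher and 33 lower, beside the 30.0% and 23.8% of all genes. The median lay 0.50 above that of all genes for Slc25a and 0.35 below for the plasma membrane carriers, which were 0.26 above without a filter on dim probes. For the GFP IP against input, 7 Slc25a genes (25.9%) were higher and 10 (37%) lower, with a median 0.26 above. There 21 plasma membrane carriers (16.5%) were higher and 59 (46.5%) lower, with a median 0.26 below. Of all genes, 18.5% were higher and 36.6% lower in that comparison. The excess of Slc25a over all genes was 0.391 and 0.643 on the PABP1 IP arrays and 0.196 and 0.173 on the GFP IP arrays, while that of plasma membrane carriers was negative on all 4, at -0.33 and -0.364, and -0.25 and -0.178. The count of 10 lower Slc25a genes in the GFP IP was 4 and 5 without input replicate 1 and 2, and the plasma membrane carriers gave 11 and 10 higher and 31 and 34 lower there, and 37 lower without GFP IP replicate 1. The count of 15 was 9 without either PABP1 IP array and 5 without either input array, and the 16 was 11 without PABP1 IP replicate 1 and 7 without either input array, while the 33 was 18 and 14 without input replicate 1 and 2. The difference between the lists was not tested, because genes are not replicates of a condition.

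**Figure D3:**
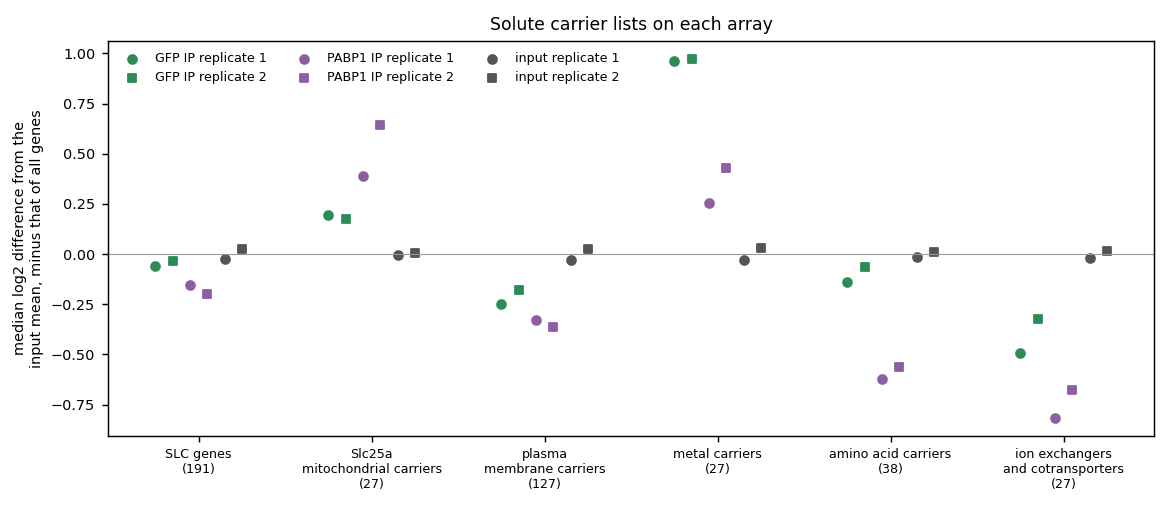
Median log2 difference from the mean of the input arrays, minus the median of all genes (vertical axis), on each of the 6 arrays for 6 lists, with the number of genes in brackets. Circles are replicate 1 and squares replicate 2. Metal carriers lie at 0.961 and 0.974 on the GFP IP arrays, Slc25a carriers lie above 0 on all 4 immunoprecipitate arrays, and plasma membrane carriers lie below 0 on the same 4.

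Compared with the PABP1 IP, in the GFP IP 6 Slc25a genes (22.2%) were higher and 12 (44.4%) lower, near the 22.3% and 41.3% of all genes. Their median lay 0.33 above that of all genes. That median rested on single arrays and on dim genes, being -0.0006 without PABP1 IP replicate 1 and -0.33 over genes well above background on all 6 arrays. The plasma membrane carriers had 22 (17.3%) higher and 47 (37%) lower, with a median 0.13 above, and the lower count was 31 without GFP IP replicate 1 or PABP1 IP replicate 1. Several carriers of central metabolism were higher in the PABP1 IP than in either other group. The citrate carrier Slc25a1 was at 2.95 and 2.82 on the GFP IP arrays, 4.56 and 4.50 on the PABP1 IP arrays and 2.78 and 2.61 on the input arrays. Its PABP1 IP was 1.83 ± 0.16 (0.00112) above input, or 3.56-fold, and its GFP IP was -1.64 ± 0.16 (0.000797) relative to the PABP1 IP. For Slc25a1 the GFP IP and input lay close together and the PABP1 IP apart.

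The ADP/ATP carriers Slc25a4 and Slc25a5, which exchange the nucleotides of oxidative phosphorylation, showed the same order of groups as each other. Slc25a5 was at 6.60 and 6.67 on the GFP IP arrays, 8.68 and 8.45 on the PABP1 IP arrays and 7.24 and 7.18 on the input arrays. It was 1.36 ± 0.16 (0.00211) above input in the PABP1 IP, and -1.93 ± 0.16 (0.000582) relative to the PABP1 IP in the GFP IP. Slc25a4 was at 6.78 and 6.34 on the GFP IP arrays, 7.95 and 8.28 on the PABP1 IP arrays and 7.24 and 7.19 on the input arrays, 0.90 ± 0.22 (0.0205) above input in the PABP1 IP, with 1.55 from a second kept probe. The highest arrays of both ADP/ATP carriers were those of the PABP1 IP and the lowest those of the GFP IP. The Slc25a4 call against input was lost without PABP1 IP replicate 2 (0.74, 0.0832), input replicate 1 (0.93, 0.0882) or input replicate 2 (0.87, 0.103). ADP/ATP carriers have processed pseudogenes in mammals, and whether these probes read them was not tested.

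The phosphate carrier Slc25a3 was at 4.06 and 4.62 on the GFP IP arrays, 6.14 and 5.49 on the PABP1 IP arrays and 4.84 and 4.78 on the input arrays, and its brightest probe was 1.01 ± 0.30 (0.0375) above input in the PABP1 IP. A second kept probe gave -1.08 there, and the mean of both was -0.038, so the probes of Slc25a3 disagreed. The call was lost without PABP1 IP replicate 1 (0.68, 0.13), input replicate 1 (1.03, 0.123) or input replicate 2 (0.98, 0.141). The S-adenosylmethionine carrier Slc25a26 was at 0.41 and 0.45 on the GFP IP arrays, 2.62 and 2.29 on the PABP1 IP arrays and 1.59 and 1.46 on the input arrays. It had the PABP1 IP arrays on top and the GFP IP arrays below input. Its GFP IP was -2.02 ± 0.18 (0.000668) relative to the PABP1 IP, the largest fall among Slc25a genes, and a second kept probe gave -0.95. The carnitine and acylcarnitine carrier Slc25a20, needed for fatty acid oxidation, was -1.26 ± 0.25 (0.00841) relative to the PABP1 IP in the GFP IP, at 1.65 and 1.12 on the GFP IP arrays, 2.44 and 2.84 on the PABP1 IP arrays and 1.69 and 1.57 on the input arrays.

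**Figure D4:**
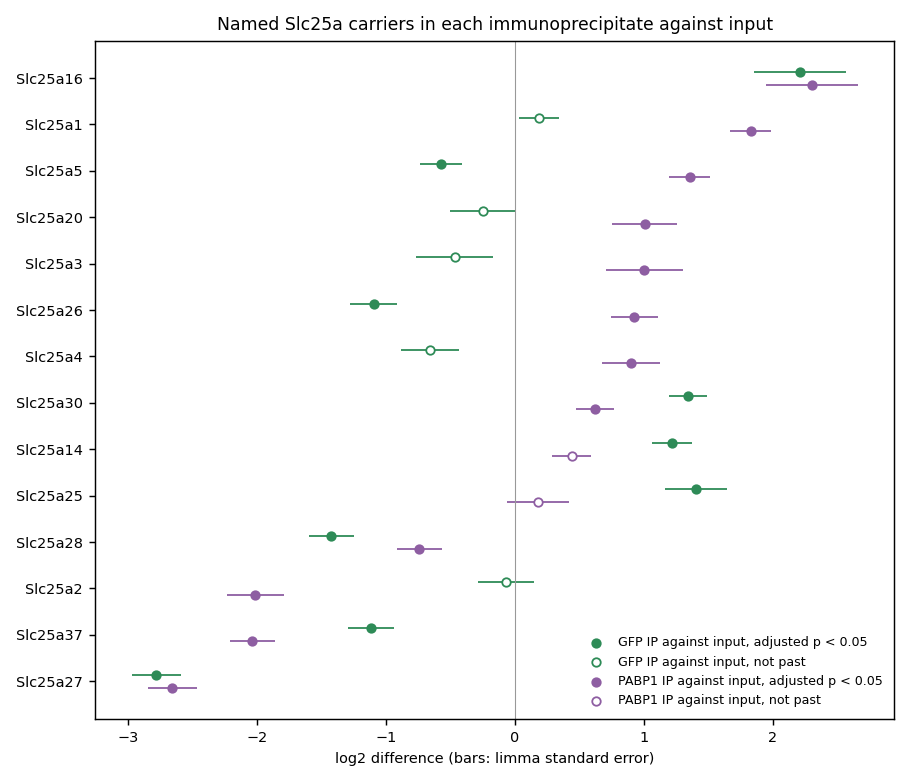
Log2 difference from input (horizontal axis) of the Slc25a genes named in the text, in the GFP IP and in the PABP1 IP, with limma standard errors as bars and filled dots for an adjusted p under 0.05. The genes are ordered by the PABP1 IP value. Slc25a1 and Slc25a5 are higher in the PABP1 IP alone, Slc25a25 and Slc25a14 are past the threshold in the GFP IP alone, and Slc25a27 is lower in both.

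Another set of mitochondrial carriers was higher in the GFP IP. Slc25a25, an ATP-Mg and phosphate carrier regulated by calcium, was at 3.84 and 3.39 on the GFP IP arrays, 2.39 and 2.39 on the PABP1 IP arrays and 2.42 and 1.998 on the input arrays. It was 1.41 ± 0.24 (0.00661) above input in the GFP IP, with 1.59 and 1.39 from its other kept probes. Slc25a14 (UCP5), a relative of the uncoupling proteins, was at 3.15 and 2.98 on the GFP IP arrays, 2.26 and 2.31 on the PABP1 IP arrays and 1.84 and 1.85 on the input arrays, 1.22 ± 0.15 (0.00309) above input. Its close relative Slc25a30 was at 0.96 and 0.84 on the GFP IP arrays, 0.20 and 0.15 on the PABP1 IP arrays and -0.45 and -0.45 on the input arrays, 1.34 ± 0.15 (0.00246) above input, with 1.15 and 1.76 from other probes. By the brightest probe of these 3 genes every GFP IP array was above every other array. For Slc25a30 the other probes gave -1.26 and 0.54 in the GFP IP against the PABP1 IP, so its probes disagreed there. Slc25a16, a carrier linked to coenzyme A, was well above background on all 4 immunoprecipitate arrays and neither input array, and was at least 1.45-fold higher in the GFP IP (measured means -2.51 and -4.72) and 1.54-fold higher in the PABP1 IP (measured means -2.42 and -4.72) than in input. It was kept through the immunoprecipitates, so no test is given. Under normexp background correction these differences were -0.41 and -0.19.

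The mitochondrial carriers that fell included Slc25a27 (UCP4), an uncoupling protein of neurons, at -3.46 and -3.49 on the GFP IP arrays, -3.55 and -3.16 on the PABP1 IP arrays and -0.76 and -0.63 on the input arrays. It was lower than input, at -2.78 ± 0.19 (0.00144) in the GFP IP, or 6.87-fold, and at -2.66 ± 0.19 (0.000909) in the PABP1 IP, where 1 of 2 arrays was well above background. The mitoferrins Slc25a28 and Slc25a37, which bring iron into mitochondria, were lower too. Slc25a37 was at 0.58 and 0.65 on the GFP IP arrays, -0.32 and -0.29 on the PABP1 IP arrays and 1.57 and 1.89 on the input arrays, lower in the PABP1 IP than in input, at -2.03 ± 0.18 (0.00112), with -0.35 from a second kept probe. Slc25a28 was at 3.20 and 3.34 on the GFP IP arrays, 4.09 and 3.82 on the PABP1 IP arrays and 4.64 and 4.75 on the input arrays, lower in the GFP IP than in input, at -1.42 ± 0.18 (0.00297). Slc25a2 was at least 3.48-fold lower in the PABP1 IP than in input (measured means -4.18 and -2.16, with no test, since it was kept through the other groups), at -2.24 and -2.22 on the GFP IP arrays, -3.99 and -4.37 on the PABP1 IP arrays and -1.97 and -2.35 on the input arrays. Under spike-in scaling Slc25a2 and Slc25a37 were 0.074 and 0.050 above input in the PABP1 IP.

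Of 35 further transporter genes and partners whose names fall outside the rule, 28 were on the array and 23 were kept. Among them, in the GFP IP against input 4 were higher and 9 lower, in the PABP1 IP against input 9 were higher and 7 lower, and in the GFP IP against the PABP1 IP 3 were higher and 8 lower. The shares of all genes called in these comparisons were 18.5% and 36.6%, 30.0% and 23.8%, and 22.3% and 41.3%. Bsg (basigin), the chaperone that brings Slc16a1 to the cell surface, averaged 3.67 in the GFP IP, 5.94 in the PABP1 IP and 3.89 in input, and was 2.05 ± 0.16 (0.000973) above input in the PABP1 IP. The phosphate exporter Xpr1 averaged 2.85 in the GFP IP, -0.03 in the PABP1 IP and 2.04 in input, and was 2.87 ± 0.23 (0.000553) higher in the GFP IP than in the PABP1 IP. Mtch2 and Ucp2, relatives of the Slc25a carriers in the mitochondrial membranes, were above input in the PABP1 IP by 1.85 ± 0.20 (0.0017) and 1.65 ± 0.22 (0.00289). The sideroflexins Sfxn2, Sfxn3, Sfxn4 and Sfxn5, carriers of the inner mitochondrial membrane, were lower than input in both immunoprecipitates, with differences of -2.13 to -0.84 in the GFP IP and -2.07 to -0.55 in the PABP1 IP. The fifth, Sfxn1, was lower in the GFP IP (-0.63 ± 0.16, 0.0218) and did not pass in the PABP1 IP (-0.20 ± 0.16, 0.336).

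The authors' deposited table of group means held a single matching row for 128 of the 191 genes. Of the genes called here and matched, its ratio had the same direction for 24 of 26 higher and 49 of 55 lower in the GFP IP against input, 22 of 24 higher and 27 of 29 lower in the PABP1 IP against input, and 24 of 24 higher and 48 of 48 lower in the GFP IP against the PABP1 IP. The table is built from the same arrays and is no independent measurement.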

How the data were processed

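RNA was hybridised in one colour (Cy3) to 6 whole-genome Agilent arrays, 2 each of GFP IP, PABP1 IP and input, each with 43379 spots for 41174 probes. Per the labels' protocols, cells were ultraviolet crosslinked, lysed and immunoprecipitated, and RNA was treated with proteinase K, extracted, labelled and amplified. Agilent Feature Extraction 9.1.3.1 read the intensity of each spot and subtracted background from it, per the file headers, and both values were deposited. The share of spots flagged as well above background ran from 41.5% to 52.6%, 0 spots were saturated, and the 75th percentile of the signal was 150 and 156 (GFP IP), 102 and 142 (PABP1 IP) and 61.3 and 72.6 (input). The number of arrays limits the precision. The authors also deposited a table of group means of signal and a quality score, used only for the direction of ratios.

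Control and outlier spots were left out, spots of a probe were averaged, and the log2 signal was scaled to the array's 75th percentile. Probes well above background on both arrays of a group were kept (21051 probes, 14996 genes, 1 probe each). Tests used the lmFit and eBayes functions of limma 3.58.1 under R 4.3.3 (group as factor, all 6 arrays, 3 residual degrees of freedom), two-sided, with Benjamini-Hochberg adjustment over all genes. The script was tested on simulated data, with 100 genes raised by 1 log2 unit and 100 by 2 in the GFP IP. Against input it called 2 and 33 of these, and 1 unchanged gene. Far fewer genes were changed there than were called on the arrays. A gene that was not called here may still differ between groups. Of the 191 genes, 177 were matched to RefSeq (GRCm38.p6) by accession and 14 by symbol. For a gene not well above background on either array of its dimmer group, the fold is a lower bound under the main processing only. It was taken on each array against the dimmest probe flagged as well above background or the gene's own signal if that was higher.

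Genes were named by rule: per comparison, the 6 largest called differences each way without overlap of arrays, up to 2 called genes per transport group, and a fixed set of common carriers. Members, gene lists and this rule were chosen with earlier results of these data known. Transport groups follow family numbers, so a gene with another substrate was counted with its family. Compartments have exceptions by gene. Slc39a6, Slc39a9, Slc23a2, Slc35b1, Slc25a14, Slc25a25, Slc25a28 and Slc25a30 in the GFP IP against input, Slc39a10 in the PABP1 IP against input, and Slc6a6 and 4 named transporters outside the name rule with the sideroflexins were chosen after their values were seen. Alternatives covered background correction, scaling, the filter, the probe rule, slide and replicate blocks, and leaving out each array.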

Additional observations from a re-analysis of the deposited data

How the results depend on the processing

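For the GFP IP against input, lower solute carrier genes numbered 51 under cyclic loess, 23 under the median of all probes and 2 under spike-in scaling. Of all genes, 24.3%, 11.6% and 2.03% were lower there. In the PABP1 IP against input, lower genes numbered 25 under the median of all probes, and spike-in scaling gave 161 higher and 1 lower. There 17% of all genes were lower, and under spike-in scaling 80.7% were higher and 1.73% lower. Without a filter on dim probes there were 19 higher and 27 lower among 290 genes, and 3207 and 2981 among all genes. For the GFP IP against the PABP1 IP, cyclic loess gave 65 higher and 40 lower, the median of all probes 41 lower, and spike-in scaling 9 higher and 125 lower. The shares of all genes were 30.9% and 27.4%, 27.5%, and 5.71% and 63.6%. Leaving out 1 array at a time gave 20 to 36 higher and 39 to 77 lower in the GFP IP against input, 15 to 42 higher and 20 to 41 lower in the PABP1 IP against input, and 30 to 35 higher and 51 to 70 lower in the GFP IP against the PABP1 IP. An arm left with 1 array was taken to vary like the other groups. Counts over all genes also fell in both comparisons with input when either input array was left out. Apart from the smaller number of arrays or the larger number of genes tested, the cause of these changes was not tested.

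Calls of 13 higher and 2 lower genes in the GFP IP against input, 6 and 0 in the PABP1 IP against input, and 8 and 25 in the GFP IP against the PABP1 IP held under every alternative run on the arrays; without spike-in scaling these would be 13 and 21, 6 and 16, and 20 and 25. The 2 lower genes were Slc25a27 and Slc2a2, and Slc2a2 was well above background on neither the GFP IP nor the input arrays. Its call there is a difference between signals near background. The 25 lower genes include Slc2a2 and Slc36a2, both kept through the PABP1 IP arrays. Against input in the PABP1 IP, spike-in scaling turned Slc1a5 (1.09), Slc2a4 (0.94), Slc45a4 (0.94), Slc28a3 (0.37), Slc12a2 (0.28), Slc25a2 (0.074) and Slc25a37 (0.050). It also turned, in the GFP IP against input, Slc3a2 (0.44) and Slc2a1 (0.041), while Slc3a2 turned as well under cyclic loess (0.18), normexp (0.045), the median of all probes (0.042) and quantile normalization (0.030). Normexp background correction turned Slc25a16 in the GFP IP (-0.41) and PABP1 IP (-0.19) and Slc36a2 in the PABP1 IP (-0.21). The mean of a gene's kept probes turned Slc2a3 in the GFP IP (-0.0081) and Slc25a3 in the PABP1 IP (-0.038) against input.

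List medians minus that of all genes changed sign, where they lay at least 0.3 from it, without a filter on dim probes in the PABP1 IP against input (amino acid carriers 0.051, sugar carriers 0.23, plasma membrane carriers 0.26) and in the GFP IP against input (ion carriers 0.20). For Slc25a in the GFP IP against the PABP1 IP the median was -0.33 over genes above background on all 6 arrays and ran from -0.0006 (without PABP1 IP replicate 1) to 0.329 when an array was left out. Metal carriers in the GFP IP stayed between 0.74 and 1.52, and Slc25a in the PABP1 IP between 0.37 and 1.11.

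The replicate numbers are shared by the groups, but nothing says that they pair the samples. Deviations of same-numbered arrays from their group means correlated at -0.651 (GFP IP and PABP1 IP), -0.059 (GFP IP and input) and 0.195 (PABP1 IP and input). With the replicate number as a block, 30 solute carrier genes were higher and 64 lower in the GFP IP against input, 34 and 35 in the PABP1 IP against input, and 33 and 64 in the GFP IP against the PABP1 IP. Among all 14996 genes this block gave 2460 and 4594, 3969 and 3141, and 3062 and 5534. Dim genes are limited by signal over background, since 35 of 191 were below it on some array.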
